A study of Mus musculus with 27 samples.

Results

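The genes described here are the 168 protein-coding genes of the count table whose deposited length is at least 500 kb, out of 21131 protein-coding genes and 37332 genes in the whole table. The length limit took 196 genes, and 28 of them were set aside because their symbols begin like those of ion channels, neurotransmitter receptors, neurexins and neuroligins, Rbfox and Sox factors, protocadherins, collagens or axon guidance molecules. Length, gene type and name made the choice, and no measured level entered it. Polyadenylated RNA longer than 200 nt was sequenced from chromatin, soluble nucleoplasm and cytoplasm of 3 mouse cell types, with 3 biological replicates of each, giving 9 groups and 27 libraries. The cell types were mESC, the E14 embryonic stem cell line kept on gelatin with LIF, mNPC, neural progenitors grown as a line that the submitting laboratory derived, given EGF and FGF daily at 10 ng/ml, and mCtx, primary cortical neurons cultured for 5 days on poly-L-lysine. Each of the first 2 cell types is a single line, and the labels give no genotype, strain, treatment or age that would separate the groups further.

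A gene of this size is nearly all intron, and RNA polymerase needs hours to cross it, so its RNA spends a long time on chromatin before it is complete. Many such genes are used in the nervous system, where they encode cell adhesion molecules, synaptic scaffolds, receptors and calcium channels. Chromatin holds RNA that is being made or kept near its gene, nucleoplasm holds RNA released inside the nucleus, and cytoplasm holds mature messenger RNA.

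The members spanned 501752 to 4434882 bp in the count table, with a median of 718620 bp. Not every span is that of the annotation used for exons and codons (GENCODE M21): Arfip1 had 1391424 bp in the count table and 86533 bp there. In Fgfr2, with a span of 2960900 bp, the longest intron of the longest coding transcript was 19104 bp. Exons covered a median of 1.21% of the span, from 0.0891% to 5.62%, against 21.5% in the other protein-coding genes. The median member had 17 exons and 827.5 codons, against 7 exons and 397 codons in the others, so the proteins were longer too, but by far less than the genes. Adgrv1, a giant adhesion receptor of the inner ear and nervous system, had the most coding sequence for its span with 6298 codons. The predicted gene Gm20388 had the least, with 536 codons in 4434882 bp, followed by Fhit, a small hydrolase encoded across a fragile site, with 213 codons in 1611944 bp. The members lay on 20 chromosomes, with 17 of them on chromosome 1.

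Grouped by the role of their products, 38 members encode signalling proteins, 37 adhesion molecules, 26 scaffold or cytoskeletal proteins, 18 metabolic or other enzymes, 17 nuclear or RNA-binding proteins, 15 matrix or secreted proteins and 9 proteins of ion transport or vesicle release. The other 8 were on no role list. Just inside the length limit lay Edil3 (501752 bp), Dock1 (502953 bp) and Car10 (503722 bp), and just outside it Dnm3 (495582 bp), Ank3 (493215 bp) and Abca13 (492318 bp). The chromatin minus cytoplasm log2 differences in mESC were 4.25, -1.13 and 5.84 for the first 3 and 1.92, 0.29 and 2.56 for the other 3.

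Counts in the deposited table are summed over a gene's whole span, introns included, because the deposited length equals end minus start plus 1 in all 37332 genes. Genes on the same strand inside a long gene therefore share its counts. The genes on the same strand inside the predicted gene Gm20388 (chromosome 8, 119910841 to 124345722, plus strand) had counts equal to 86.0% of its own. For Fgfr2, a fibroblast growth factor receptor (chromosome 7, 130162451 to 133123350, minus strand), the share was 80.7%. It was 86.6% for Agbl4, 75.6% for Pde4d, 49.4% for Camta1, 28.1% for Magi2, 20% for Lrp1b and 17.1% for Zbtb20. It was under 10% for 158 members, and the number of calls without the rest is given beside the main results. Positions are those of the count table, on mm10.

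Library totals ran from 10622897 to 24537526 counts. All 12 stem cell markers were at 1 CPM or more (CPM, a read count scaled to library size) in mESC, all 11 progenitor markers found were so in mNPC, and all 14 neuron markers, among them the member Syt1, in mCtx. The 11 progenitor markers also stood above 1 CPM in mCtx, with a summed level of 1073 to 2160 CPM against 5630 to 16783 in mNPC. Over the libraries of a cell type, microglial markers summed to 43.2 to 72.6 CPM in mCtx, 22.7 to 32.5 in mNPC and 34.3 to 105 in mESC. Only 1 of the 8 was at 1 CPM or more in each mESC and mNPC group and in mCtx chromatin, against 5 in mCtx nucleoplasm and cytoplasm. In chromatin and in cytoplasm 5 of 6 tested were higher in mCtx than in mNPC (23.5% and 24.4% of all genes). Astrocyte markers summed to 184 to 382 CPM in mCtx, 451 to 1999 in mNPC and 108 to 674 in mESC. Of these, 7 of 7 tested were higher in mNPC than in mESC cytoplasm (29.8% of all genes). Oligodendrocyte markers summed to 16.4 to 43.3 CPM in mCtx, 117 to 2042 in mNPC and 5.47 to 80.4 in mESC, with 5 of 6 higher in mNPC than in mESC cytoplasm and 5 of 6 lower in mCtx than in mNPC. In mESC the libraries numbered 1 were the highest of their 3 for endothelial markers (518 CPM against 317 and 222 in nucleoplasm) and for 50% of members in chromatin, 62.7% in nucleoplasm and 57.3% in cytoplasm, where the shares over all genes tested were 34.4%, 42.1% and 33.7%. In mCtx the libraries numbered 3 were the highest for 69.8%, 51.0% and 61.9% of members, against 34.7%, 47.2% and 35.3% of all genes. The part of these marker levels in the results below was not tested.

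The members took a larger share of the counts in mCtx than in the other cell types, in every fraction. Without Gm20388 and Fgfr2, they held 1.763% ± 0.065 (SD, n = 3) of the counts in mCtx chromatin, 1.182% ± 0.024 in nucleoplasm and 0.870% ± 0.085 in cytoplasm. The corresponding mNPC values were 0.494% ± 0.030, 0.502% ± 0.030 and 0.333% ± 0.025, and those of mESC 0.334% ± 0.046, 0.201% ± 0.023 and 0.173% ± 0.028. No mCtx library overlapped a library of another cell type in the same fraction. In all 3 cell types every chromatin library lay above every cytoplasm library, and in mNPC chromatin and nucleoplasm overlapped. In bulk RNA a lower level may be fewer cells that express a gene or less RNA in each, and these cannot be told apart.

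**Figure D1:**
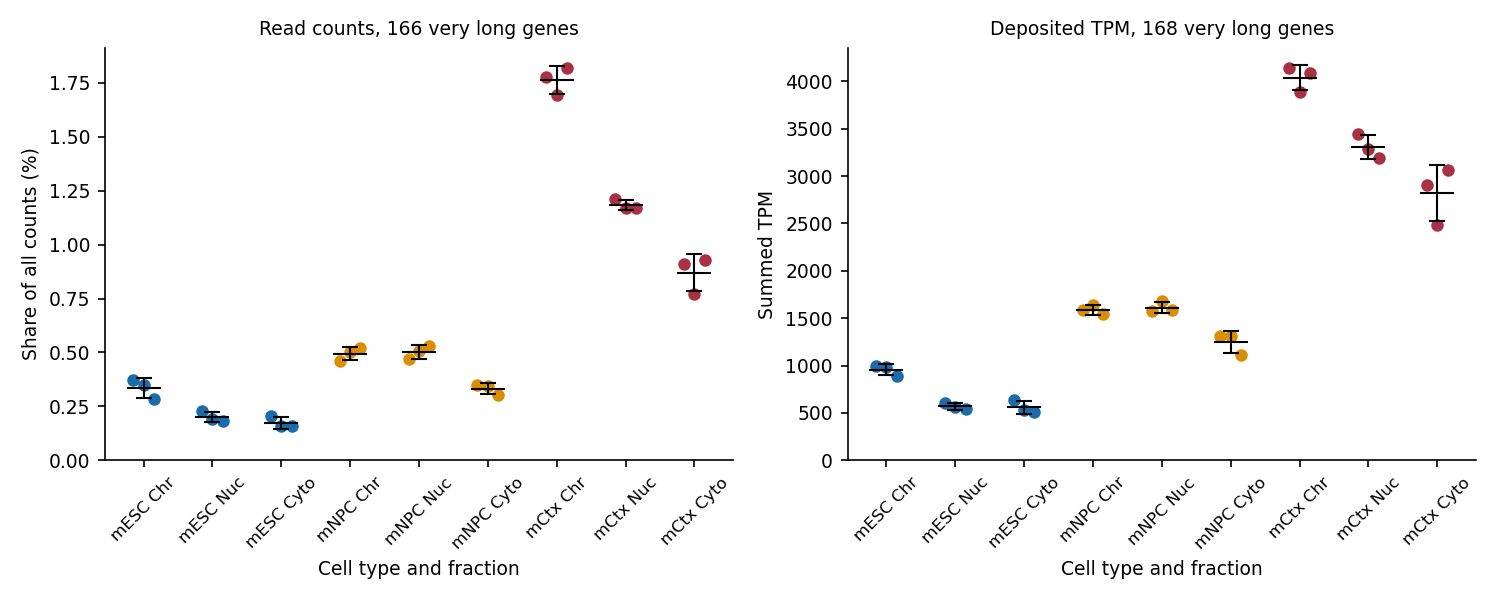
Each point is 1 library and each bar a group mean with its SD (n = 3), in 3 fractions of 3 cell types. The left panel gives the share of all counts held by 166 of the genes (Gm20388 and Fgfr2 left out) in percent, and the right panel the summed TPM of all 168; the mCtx libraries are the highest in every fraction on both scales.

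The transcript-based table gave the same order of cell types. The TPM value is scaled for transcript length and library size, so it can be compared between genes. Summed over the 168 members it was 4039 ± 132 in mCtx chromatin, 1588 ± 51 in mNPC chromatin and 956 ± 60 in mESC chromatin, and 2820 ± 299, 1247 ± 119 and 560 ± 66 in the 3 cytoplasms. In mCtx 143 members had a mean of at least 1 TPM in chromatin and 130 in cytoplasm, against 105 and 88 in mNPC and 72 and 50 in mESC. The median member stood at 7.89 TPM in mCtx chromatin and 0.703 TPM in mESC chromatin, where the median of all protein-coding genes was 5.71 and 5.26 TPM. For the 151 members with at least 1 TPM in some group, the highest mean TPM of the 9 groups fell in mCtx for 100, in mNPC for 36 and in mESC for 15.

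On the TPM scale the most abundant member in mCtx cytoplasm was Cdh13, a GPI-anchored cadherin, at 173 ± 16 TPM. Syt1, the calcium sensor of synaptic vesicle release, followed at 162 ± 22 TPM. Celf2, an RNA-binding regulator of splicing, stood at 119 ± 21 TPM there and at 203 ± 5.8 TPM in mCtx chromatin. Dmd, which encodes dystrophin (chromosome X, 82948870 to 85206141), was highest in mNPC, with 99.1 ± 14 TPM in chromatin against 26.2 ± 5.7 in mESC and 32.6 ± 5.3 in mCtx. Cntnap2, a contactin-associated adhesion protein (chromosome 6, 45060061 to 47301369), was at 44.9 ± 1.3 TPM in mCtx cytoplasm, 4.77 ± 1.4 in mESC and 0.237 ± 0.029 in mNPC. In all 3 fractions its mean TPM was lowest in mNPC.

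Among scaffold genes, Nbea, a neuronal trafficking scaffold, reached 167 ± 8.7 TPM in mCtx chromatin and 162 ± 5.0 in nucleoplasm but 33.7 ± 6.9 in cytoplasm. The adhesion gene Ctnnd2, a delta-catenin of the synapse, was nearly level over the mCtx fractions, at 85.6 ± 3.5, 77.2 ± 1.7 and 76.3 ± 8.7 TPM, where the SDs of nucleoplasm and cytoplasm overlap. Enox1, an oxidase, was among the members with a high mESC level, at 29.5 ± 7.9 TPM in cytoplasm against 3.03 ± 0.51 in mNPC and 18.2 ± 1.9 in mCtx. Camta1, a transcription activator, stood at 47.0 ± 19, 69.8 ± 9.8 and 59.0 ± 8.0 TPM in the cytoplasm of mESC, mNPC and mCtx.

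Of 166 members with enough counts to test, 66 rose and 55 fell from mESC to mNPC in chromatin, and 80 rose and 30 fell in cytoplasm. A gene was called when the Benjamini-Hochberg adjusted p of edgeR's quasi-likelihood test was under 0.05 and the log2 change at least 1 in size. Of all 18226 genes tested, 25.3% rose and 31.9% fell in chromatin, and 29.8% rose and 29.6% fell in cytoplasm. The median log2 change of the members was 0.18 ± 0.15 (SD of the 3 replicate medians) in chromatin and 1.31 ± 0.14 in cytoplasm, with medians over all genes of -0.14 and -0.01. The SD comes from log2 CPM with a small constant added, between same-numbered libraries, and not from the fitted changes. It is only a rough guide to spread, here and at later medians given with ±. Numbers do not pair libraries of different cell types. With bounds for the 51 members of 3 counts or fewer in a group, set as described under processing, the median in cytoplasm was 1.11. In chromatin the median turned to -0.03 with DESeq2. Without members that share 10% or more of their counts, 62 rose and 52 fell in chromatin and 77 rose and 26 fell in cytoplasm. In the TPM table, with 1 TPM added before taking logs, limma-trend called 54 of 150 members higher and 17 lower in chromatin (22.1% and 21.4% of all genes), and 55 higher and 14 lower in cytoplasm (19.1% and 16.2%).

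Of the adhesion genes 20 of 37 rose in chromatin and 8 fell, and 25 of 37 rose in cytoplasm and 3 fell. In TPM + 1, 17 of 31 were higher and 2 lower in chromatin, and 16 higher and 1 lower in cytoplasm. Lsamp, an immunoglobulin adhesion protein of developing neurons, was at 0.0974, 0.0408 and 0.134 CPM in mESC chromatin and at 119, 137 and 136 CPM in mNPC chromatin. The groups lay far apart, with a log2 change of 10.41 ± 0.26 (SE, adjusted p = 1.4e-21). Here and below the SE is the log2 change divided by the square root of the test statistic F. It is not an interval around the change where a group holds few counts, and Lsamp had 6 in mESC chromatin. Kirrel3, another immunoglobulin adhesion protein, rose by 6.70 ± 0.28 on the log2 scale. Mdga2, which binds neuroligins, rose by 8.14 ± 0.32, from 6 counts in mESC chromatin. Among signalling genes, 17 of 38 rose and 8 fell in chromatin, with 16 of 36 higher and 2 lower in TPM + 1. Erbb4, the receptor kinase for neuregulins, stood at 0.146, 0.489 and 0.268 CPM in mESC chromatin and at 69.7, 67.0 and 73.0 CPM in mNPC chromatin, a log2 change of 7.78 ± 0.26. In cytoplasm Erbb4 had no count in mESC and was at least 225-fold higher in mNPC, against a floor of 3 counts over the group. The transcription factor Npas3 rose by 7.58 ± 0.26 in chromatin and the cyclic AMP phosphodiesterase Pde4b by 7.71 ± 0.23.

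In counts 3 of 15 matrix and secreted genes rose in chromatin and 10 fell, with a median of -2.98, but the direction turned in TPM. There 1 of 12 was higher and 1 lower with 1 TPM added (median 0.22), and 5 were higher and 1 lower with 0.1 TPM added (median 0.64). Of the enzymes 4 of 18 rose and 8 fell in counts (median -0.90), against 2 higher and 2 lower in TPM + 1 (median 0.04) and 4 and 4 in TPM + 0.1 (median 0.08). Etl4, a gene known from notochord and intervertebral disc development, was at 282, 264 and 223 CPM in mESC chromatin and at 5.62, 4.48 and 6.3 CPM in mNPC chromatin. It fell by 5.56 on the log2 scale (SE 0.18, adjusted p = 1.3e-19) with no overlap. Asic2, an acid-sensing ion channel, fell by 5.97 with an SE of 0.42, although its TPM change was only -0.18. Zmat4, a zinc finger protein, was 360-fold lower in mNPC cytoplasm, with a counting interval (95%) of 99.3 to 2981 that rests on 2 counts in mNPC. Dock2, a Rac activator of blood cells, was at least 89.3-fold lower in mNPC cytoplasm. Intervals and floors cover counting error only.

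From mNPC to mCtx, 115 members rose and 16 fell in chromatin, and 108 rose and 23 fell in cytoplasm. Over all genes the shares were 23.5% and 21.4% in chromatin and 24.4% and 20% in cytoplasm. The median log2 change was 2.61 ± 0.10 in chromatin and 2.50 ± 0.22 in cytoplasm, against 0.00 over all genes in both. All 115 rises in chromatin, and 107 of the 108 in cytoplasm, had the 3 mCtx libraries above the 3 mNPC libraries, as did 99.3% and 98.5% of the rises among all genes. The 104 members that rose in both fractions were 90.4% of the rises in chromatin and 96.3% of those in cytoplasm, and no member rose in one and fell in the other. This overlap was not worked out over all genes, so it cannot be read as particular to the members. By TPM + 1, 80 of 150 members were higher and 21 lower in chromatin (16.2% and 19.0% of all genes), and 81 higher and 16 lower in cytoplasm (13.7% and 12.6%).

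**Figure D2:**
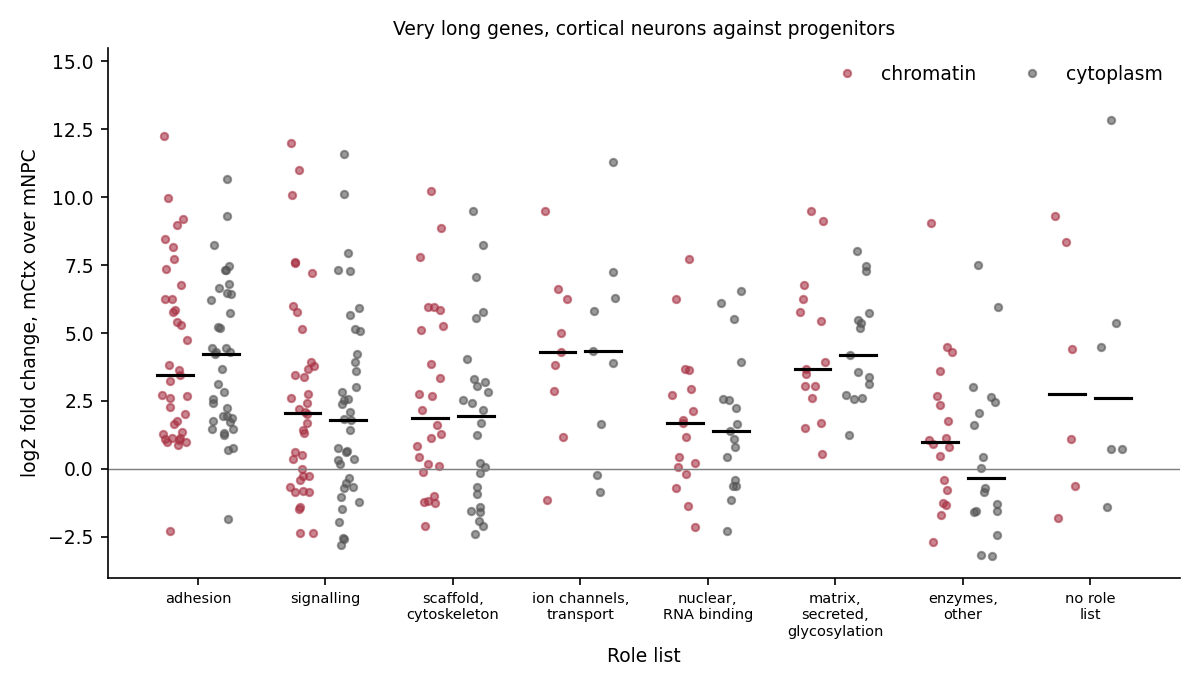
Log2 change from mNPC to mCtx for each tested gene, in chromatin and in cytoplasm, by the role of its product. Black lines are medians: those of adhesion genes stand at 3.45 and 4.25, and those of enzymes at 0.98 and -0.34.

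The rise covered 33 of 37 adhesion genes in each fraction, with 1 fall in each. All 13 matrix and secreted genes that were called rose, in chromatin and in cytoplasm, as did 8 of 9 ion transport genes in chromatin and 7 in cytoplasm. The enzymes differed, with 9 rises and 4 falls in chromatin and 7 of each in cytoplasm. Signalling genes had 23 rises and 4 falls among 38 in chromatin, but 18 higher and 12 lower among 36 in both TPM fits. Nuclear and RNA-binding genes had 10 rises and 2 falls, and scaffold genes 16 and 4. In TPM + 1 chromatin the values were 19 higher and 1 lower of 31 adhesion genes, 8 and 0 of 12 matrix and secreted genes, 7 and 0 of 9 ion transport genes, and 5 and 1 of 18 enzymes.

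Among ligands, Nrg3, a neuregulin that activates Erbb4, was at 0.0502, 0.0471 and 0 CPM in mNPC chromatin and at 170, 163 and 195 CPM in mCtx chromatin. The ratio was 4940, with a counting interval of 1367 to 40793 set by 2 counts in mNPC. Its receptor Erbb4 took another course: after its rise in mNPC it stood at 45.4, 40.8 and 46.3 CPM in mCtx chromatin, below the mNPC libraries by 0.66 on the log2 scale, which did not reach the size needed for a call. Of the synaptic scaffolds, Dlg2 (PSD-93) was at 0.552, 0.377 and 0.268 CPM in mNPC chromatin and at 491, 471 and 533 CPM in mCtx chromatin, a log2 change of 10.23 ± 0.29. The groups of both genes were far apart.

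Cntnap5a, a contactin-associated adhesion protein, had no count in any mNPC library and was at 34.7, 29.4 and 38.3 CPM in mCtx chromatin, at least 640-fold higher against 3 counts. Tenm1, a teneurin that joins neurons across the synapse, rose by 9.95 ± 0.32 on the log2 scale in chromatin. Asic2 had fallen in mNPC and rose here by 9.49 ± 0.38, to 78.6, 84.0 and 84.2 CPM. Both changes rest on 6 counts in mNPC chromatin. Rgs6, which switches off G proteins, had a ratio of 2469 that rests on 2 mNPC counts.

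Of the 16 members that fell in mCtx chromatin, 4 encode scaffold, 4 signalling and 4 enzyme proteins, 2 nuclear proteins, 1 an adhesion and 1 an ion transport protein. Npas3 was at 72.5, 92.1 and 102 CPM in mNPC chromatin and 20, 19.2 and 21.0 CPM in mCtx chromatin, and fell by 2.15 on the log2 scale (SE 0.18). Dock1, a Rac activator, fell by 2.35 in chromatin and 2.82 in cytoplasm. The receptor phosphatase Ptprm fell by 2.35, Adgrv1 by 2.29 and the polarity protein Pard3b by 2.10 in chromatin. In cytoplasm the carboxypeptidase Cpq fell by 3.21, the pyrimidine-degrading enzyme Dpyd by 3.17 and the diacylglycerol kinase Dgkb by 2.59.

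**Figure D3:**
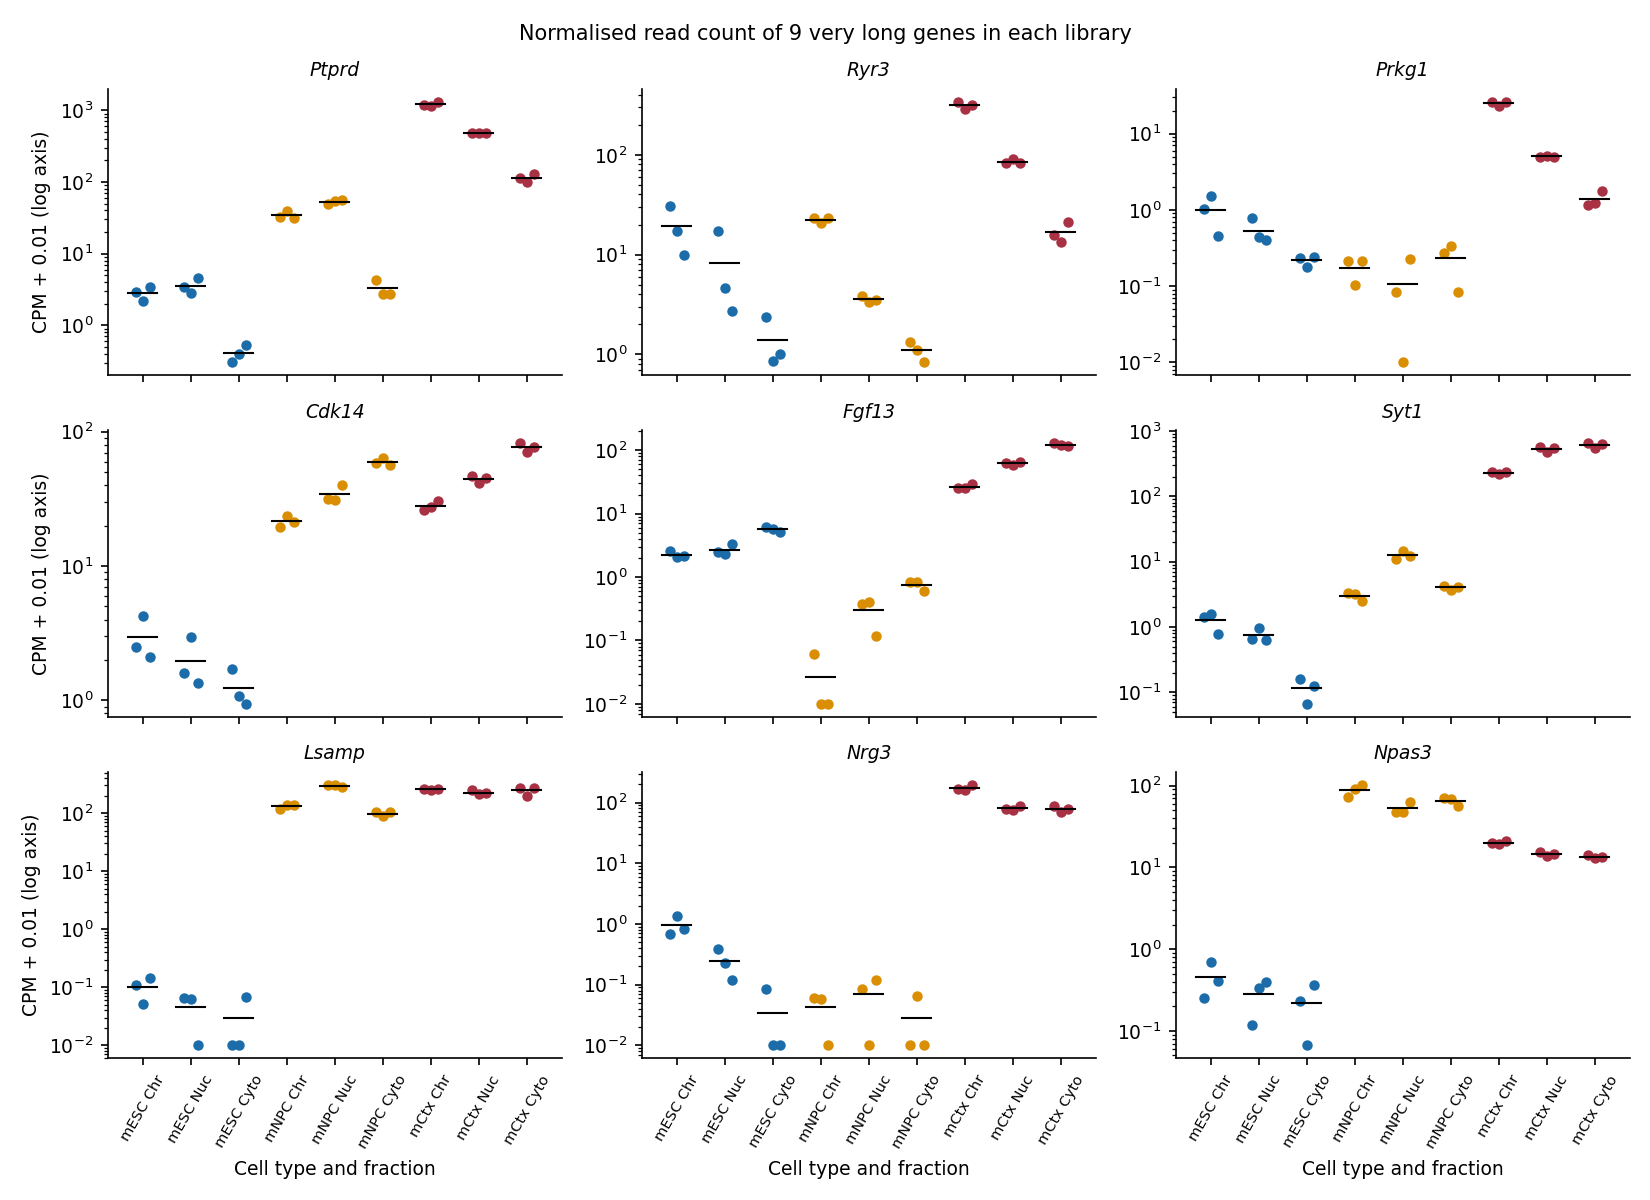
CPM plus 0.01, on a log axis, in each of the 27 libraries for 9 genes; points are libraries and black lines group means. Ptprd, Ryr3 and Prkg1 are higher in mCtx chromatin than in cytoplasm, Cdk14, Fgf13 and Syt1 the other way round; Lsamp is first high in mNPC, Nrg3 in mCtx, and Npas3 is highest in mNPC.

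RefSeq promoters (250 bases before to 50 after the start, GRCm38.p6) were matched to 134 of the 168 members, with 204 promoters in all. Both strands were searched for TTCAGCACC, a core part of the RE1 element bound by the neuronal repressor REST, because many members were low outside mCtx. It was found in 2 of the 204 member promoters (0.980%) and in 122 of 32851 promoters of all genes (0.371%). The 2 are shown with the motif, here on the other strand as GGTGCTGAA, in capitals. The first lies at chr1:99772151-99772450 on the plus strand and the second at chr12:116485470-116485769 on the plus strand.
Cntnap5b: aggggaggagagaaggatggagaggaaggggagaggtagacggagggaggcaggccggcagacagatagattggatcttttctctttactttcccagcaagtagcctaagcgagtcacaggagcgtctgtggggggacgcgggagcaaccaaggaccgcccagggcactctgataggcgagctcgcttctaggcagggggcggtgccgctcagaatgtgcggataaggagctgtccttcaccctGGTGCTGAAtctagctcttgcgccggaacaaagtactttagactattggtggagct
Ptprn2: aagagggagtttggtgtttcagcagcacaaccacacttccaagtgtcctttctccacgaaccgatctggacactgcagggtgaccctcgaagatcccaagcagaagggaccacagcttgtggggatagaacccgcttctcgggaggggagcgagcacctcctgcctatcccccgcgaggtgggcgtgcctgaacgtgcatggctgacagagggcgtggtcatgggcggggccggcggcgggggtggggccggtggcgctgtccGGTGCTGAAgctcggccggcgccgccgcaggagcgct
The motif begins 6 bases before the annotated start in Cntnap5b, a contactin-associated adhesion gene, and 14 bases after it in Ptprn2, a phosphatase-like protein of secretory vesicles. Cntnap5b had a mean of 9.06 CPM in mCtx chromatin and 0.46 in mESC chromatin. Ptprn2 had 126 CPM in mCtx chromatin, 38.8 in mNPC and 2.20 in mESC. The box TATAAA was in 10.3% of member promoters and 13.6% of all, and GGGCGG in 47.5% and 35.7%. Member promoters held a median of 12 CG dinucleotides against 7. A match is a description of these letters, and binding was not measured.

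Counts of the members lay more on chromatin than in cytoplasm in all 3 cell types, most of all in mESC and least in mNPC. In mESC 118 of 166 were higher on chromatin and 6 lower (71.1% and 3.61%), against 34.4% and 21.6% of all genes. In mCtx 82 were higher and 9 lower (49.4% and 5.42%), against 26.2% and 24.4%. In mNPC 52 were higher and 8 lower (31.3% and 4.82%), against 27.5% and 21.3%. The share higher in mNPC was thus near that of all genes. The median log2 difference was 2.10 ± 0.15 in mESC, 0.66 ± 0.08 in mNPC and 0.97 ± 0.08 in mCtx, where the median over all genes was 0.37, 0.12 and 0.00. With the same bounds for members of 3 counts or fewer in a group, the first 2 medians were 2.06 and 0.42. Of the members higher on chromatin, 106 of 118 in mESC, 52 of 52 in mNPC and 82 of 82 in mCtx had fractions that did not overlap. Among all genes called higher the shares were 94.0%, 98.3% and 98.9%. Library totals in place of TMM scaling moved the median of all genes to 0.88, 0.43 and 0.24. Without the mESC libraries numbered 1, left out after the data were seen, 111 were higher and 7 lower in mESC. Without members that share counts, 116, 50 and 79 were higher and 3, 8 and 9 lower in the 3 cell types. Members with a mean under 0.1 TPM in a group still held some counts over their spans. Their median was 0.646 CPM per Mb of span in mESC chromatin (27 members) and 0.090 in mESC cytoplasm (75 members). It was 0.058 and 0.064 in mNPC (25 and 41 members), and 0.448 and 0.176 in mCtx (7 and 10 members). These members differ between groups, and the part of such counts in the mESC excess was not tested.

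In the TPM table the members' standing against other genes depended on the amount added before taking logs. With 1 TPM added, 31, 37 and 43 of 150 members were higher on chromatin in mESC, mNPC and mCtx, against 42.9%, 41.0% and 36.2% of all genes, and 5, 10 and 10 were lower, against 8.02%, 8.50% and 8.31%. The members' medians were 0.31, 0.39 and 0.39, below the medians of all genes of 0.80, 0.76 and 0.59. With 0.1 TPM added, which weighs low genes more, 75, 68 and 50 were higher, against 52.9%, 50.6% and 45.8%, and 7, 11 and 12 were lower, against 8.97%, 9.67% and 9.90%. Against the other protein-coding genes alone, the median difference of mean levels with 0.1 TPM added was higher in the members in mESC (1.10 against 0.73), close in mNPC (0.79 against 0.75) and lower in mCtx (0.46 against 0.64). With 1 TPM added it was lower in all 3, at 0.31, 0.29 and 0.34 against 0.44, 0.46 and 0.39. In mESC the gap between counts and TPM went with level: the 98 members with a mean under 1 TPM had a median chromatin excess of 2.79 in counts and 1.10 in TPM + 0.1, whereas the 68 others had 1.08 and 1.19. In mCtx the 139 members at 1 TPM or more still had 0.90 in counts and 0.53 in TPM + 0.1. The split uses the TPM values that enter the TPM ratio, and the added 0.1 TPM shrinks ratios at low levels. Counts over a span include introns and TPM does not. How much of the gap any of these makes was not tested.

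**Figure D4:**
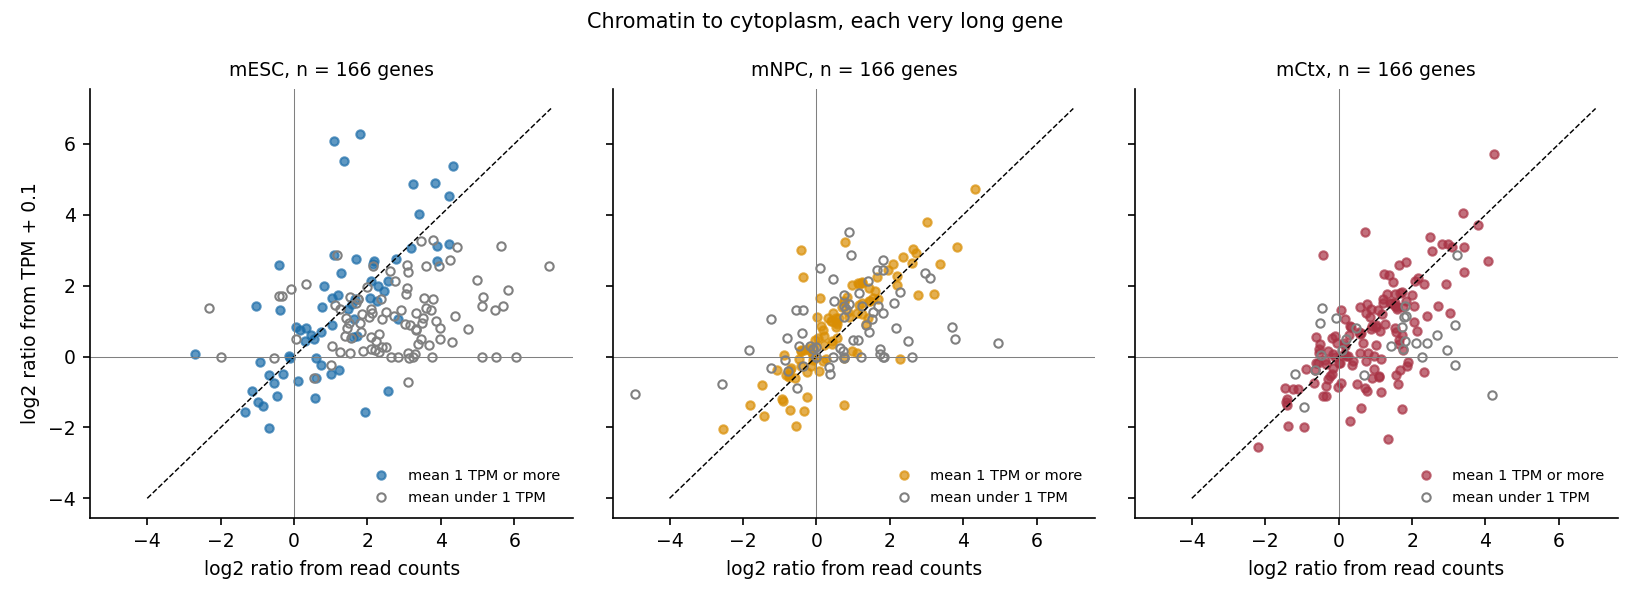
Chromatin minus cytoplasm log2 difference of each gene from counts (horizontal) and from TPM + 0.1 (vertical) in mESC, mNPC and mCtx, with a dashed line where both are equal; filled points have a mean of at least 1 TPM and open points less. In mESC the open points have a median of 2.79 in counts and 1.10 in TPM + 0.1.

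Across protein-coding genes binned by length, with the families set aside above included, the median chromatin excess in counts was lowest below 10 kb and highest in the longest class in all 3 cell types. In mNPC it did not grow at each step, with 0.46 at 100 to 200 kb and 0.41 at 200 to 500 kb. For mESC the shortest and longest classes had medians of -0.57 and 2.22, for mNPC -0.43 and 0.75, and for mCtx -0.76 and 1.00. In TPM + 0.1 the corresponding pairs were 0.25 and 1.07, 0.32 and 0.90, and 0.02 and 0.46, but the medians of mNPC and mCtx were highest at 30 to 100 kb, at 0.97 and 1.00. Among the 166 members themselves length made little difference, with Spearman's rho of 0.06, 0.03 and 0.19 between length and excess. The rho with cytoplasmic TPM was -0.58, -0.36 and -0.39; cytoplasmic level enters both axes, so these are descriptions only.

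**Figure D5:**
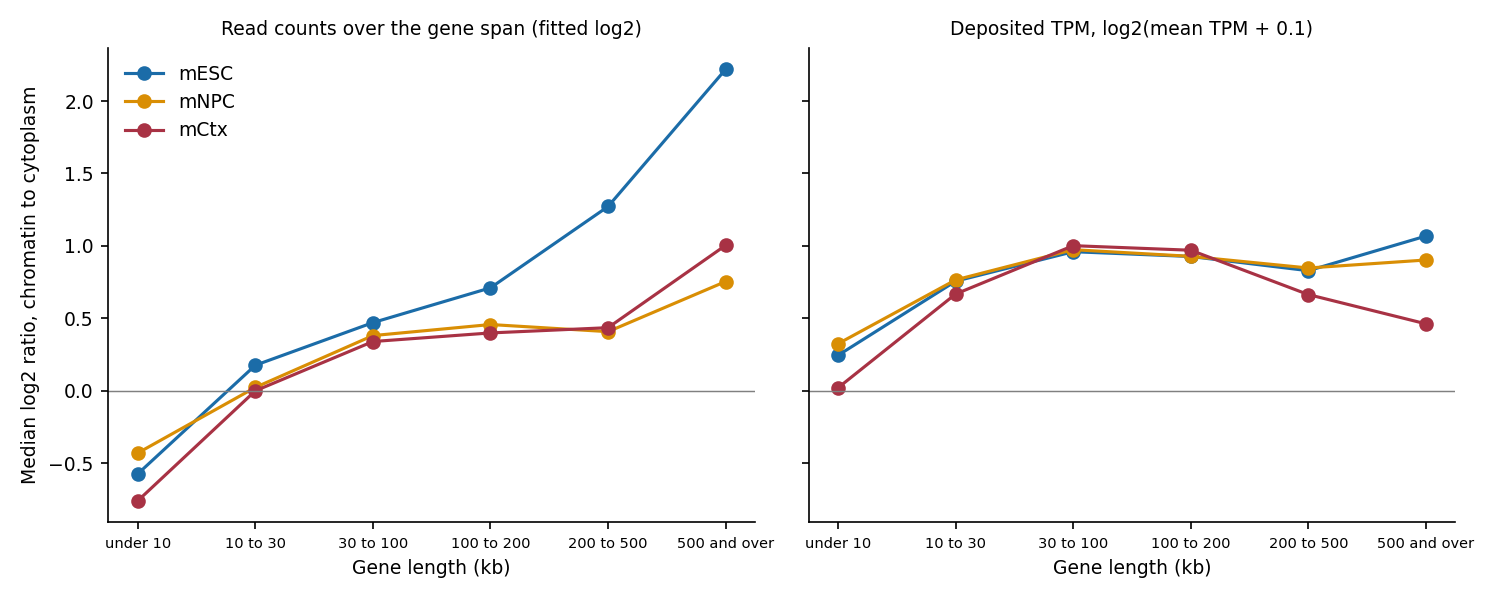
Median chromatin minus cytoplasm log2 difference of protein-coding genes by length class and cell type, from counts (left) and from TPM + 0.1 (right). In counts the medians reach 2.22, 0.75 and 1.00 in the class of 500 kb and over; in TPM the mCtx median is 0.46 there, below its 1.00 at 30 to 100 kb.

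By call, 37 members were higher on chromatin in all 3 cell types (22.3% of the 166, against 12.8% of all genes). Another 39 were higher in mESC and not called elsewhere (23.5% against 10.4%), 30 were higher in mESC and mCtx and not called in mNPC (18.1% against 2.62%), and 18 were called in none (10.8% against 20.1%). The 37 include the calcium release channels Ryr2 and Ryr3 and the receptor phosphatase Ptprd. Of the adhesion genes 30 of 37 were higher in mESC, 14 in mNPC and 22 in mCtx, and of the ion transport genes 8, 3 and 4 of 9. Of the scaffold genes 15, 7 and 14 of 26 were higher, and of the signalling genes 24, 14 and 18 of 38. In TPM + 1 these were 6, 8 and 11 of 31 adhesion genes and 5, 10 and 9 of 36 signalling genes.

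Ptprd (chromosome 4, 75941238 to 78211961) was at 1173, 1137 and 1302 CPM in mCtx chromatin and 115, 98.7 and 127 CPM in cytoplasm, a log2 difference of 3.41 ± 0.17 (adjusted p = 4.9e-15). Its TPM showed the same, 201 ± 19 against 23.7 ± 3.7. Ryr3, on chromosome 2 from 112631355 to 113217096, was at 338, 291 and 317 CPM against 15.6, 13.3 and 21.4, a difference of 4.23 ± 0.42. In both genes the fractions lay far apart. Prkg1, the cyclic GMP-dependent kinase, differed by 4.17 ± 0.32. In mNPC Ryr3 differed by 4.32 ± 0.50, Ptprd by 3.36 ± 0.19 and the complement-like membrane protein Csmd1 by 3.20 ± 0.21. In mESC the members farthest on chromatin were of low level: Adgrb3, an adhesion receptor, was at 4.29, 7.09 and 2.82 CPM against 0.147, 0.113 and 0.175, and St6galnac3, a sialyltransferase, differed by 3.88 ± 0.32.

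A few members went the other way and were higher in cytoplasm. Fgf13, an intracellular growth factor homologue that binds sodium channels, was at 25.4, 25.4 and 29.2 CPM in mCtx chromatin and 128, 123 and 116 CPM in cytoplasm. The difference was -2.19 ± 0.14 (adjusted p = 4.5e-13), and -2.47 in TPM. Fgf13 was the one member called lower on chromatin in all 3 cell types (0.602% of members tested, against 11.2% of all genes). Its mNPC call rests on 1 count in chromatin and 42 in cytoplasm. Syt1 was at 236, 222 and 236 CPM in mCtx chromatin and 645, 543 and 642 CPM in cytoplasm, a difference of -1.40 ± 0.15. The kinase Cdk14 was lower on chromatin by 1.45 in mCtx and 1.47 in mNPC. Elmo1, a partner of Dock proteins, was lower by 1.41 in mCtx, and the adhesion proteins Negr1 and Cdh13 by 1.38 and 1.26. Syt1, Cdk14, Negr1 and Cdh13 were called higher on chromatin in mESC, where they had 5, 58, 2 and 10 counts in cytoplasm. In mNPC the GDP-mannose dehydratase Gmds differed by -2.55 ± 0.22 and the exocyst subunit Exoc4 by -1.79 ± 0.18. Pde4d and Lrp1b were lower on mESC chromatin in counts, by 2.70 and 2.31, but not in TPM (0.07 and 0.26), and both share counts with genes inside them.

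Between nucleoplasm and cytoplasm, 65 members were higher in mESC nucleoplasm and 5 lower, against 27.5% and 8.95% of all genes. In mNPC 56 were higher and 4 lower, against 16.4% and 8.56%, and in mCtx 44 and 2, against 11.7% and 9.57%. Of the members higher in nucleoplasm, 50 of 65 in mESC, 54 of 56 in mNPC and 44 of 44 in mCtx had fractions that did not overlap. Among all genes called higher the shares were 90.8%, 96.0% and 98.1%, so in mESC the members overlapped more often. Library totals turned the mNPC split into 49 higher and 16 lower. The mESC count of higher members was 34 when only the libraries compared were fitted. Of the adhesion genes 25 of 37 were higher in mNPC and 0 lower (median 2.30), with 19 of 31 higher in TPM + 1, and 17 of 37 were higher in mCtx, with 9 of 31 in TPM + 1. In TPM + 1 the members higher were 12 in mESC, 35 in mNPC and 20 in mCtx, against 15.4%, 6.74% and 6.38% of all genes, and those lower 2, 12 and 6, against 3.96%, 13.2% and 5.36%.

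Ptprk, a receptor phosphatase, was at 165, 130 and 139 CPM in mESC nucleoplasm and 11.3, 10.7 and 10.6 CPM in cytoplasm, a difference of 3.73 ± 0.16. The 3 nucleoplasm libraries also lay above those of mESC chromatin, at 50.3, 47.2 and 50.4 CPM. Tenm2, a teneurin, was at 394, 381 and 407 CPM in mCtx nucleoplasm and 44.2, 42.2 and 60.9 CPM in cytoplasm, a difference of 3.00 ± 0.22. In mNPC Tenm2 differed by 4.85 ± 0.34 and the follistatin-like secreted protein Fstl5 by 4.38 ± 0.35, both at low level. Schip1, a scaffold of the axon initial segment, was lower in mNPC nucleoplasm by 1.17, and Dach2 and Elmo1 in mCtx nucleoplasm by 1.09 and 1.03.

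The chromatin excess itself differed between cell types for many members. From mESC to mNPC it fell in 64 and rose in 7, against 17.7% and 10.3% of all genes, with a median change of -1.38 ± 0.20 against -0.19. From mNPC to mCtx it rose in 31 and fell in 11, against 7.68% and 11.4%, with a median of 0.22 ± 0.25 that turned to -0.21 in TPM + 0.1. It fell in 13 of 18 enzymes in the first step (median -1.66) and rose in 8 of 18 in the second (median 1.13). In TPM + 1 the enzymes had 4 falls and 2 rises in the first step (median -0.16) and 4 rises and 2 falls in the second (median 0.31). In TPM + 1 the first step had 17 falls and 15 rises among 150 (15.7% and 13.3% of all genes) and the second 20 falls and 21 rises (13.4% and 8.78%). Of the single genes, Gpc6, a glypican, fell by 3.95 in the first step. In the second Magi2, a synaptic scaffold, rose by 2.27 ± 0.29 and Gmds by 2.30 ± 0.29, while Edil3, a secreted integrin ligand, fell by 1.88 and Ptprn2 by 2.54. Both steps share the mNPC libraries. How far the mESC chromatin counts of members under 0.1 TPM enter the falls of the first step was not tested.

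The genes behind these changes kept ample counts in some of the 4 groups compared. Magi2 was at 56.4, 64.6 and 77.1 CPM in mNPC chromatin and 121, 114 and 97.4 CPM in mNPC cytoplasm, and at 196, 192 and 216 against 69.5, 61.0 and 79.5 CPM in mCtx. It was thus higher in cytoplasm in mNPC and higher on chromatin in mCtx, with no overlap in either. The mNPC difference was not called, and same-strand genes inside Magi2 had counts equal to 28.1% of its own. Gmds was at 1.96, 3.72 and 3.75 against 17.9, 17.8 and 19.4 CPM in mNPC, and at 15, 15.6 and 16.9 against 16.2, 22.2 and 17.6 CPM in mCtx, where the fractions overlapped. Edil3 was at 8.28, 6.93 and 8.38 against 4.86, 4.08 and 4.92 CPM in mNPC, and at 25.1, 25.0 and 26.5 against 55.4, 48.8 and 61.5 CPM in mCtx, so its fractions changed places. Ptprn2 was at 33.9, 41.1 and 41.5 CPM on mNPC chromatin and 8.78, 8.65 and 7.97 CPM in cytoplasm, while in mCtx the cytoplasm, at 151, 160 and 169 CPM, lay above chromatin, at 122, 125 and 130 CPM.

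A list of 46 genes that act in transcription elongation and in the expression of long genes, none of them a member, was read beside the set. It holds topoisomerases, elongation factors and Sfpq, an RNA-binding protein needed for long neuronal genes. On chromatin against cytoplasm 4 were higher and 13 lower in mESC (8.70% and 28.3%, against 34.4% and 21.6% of all genes). In mNPC 12 were higher and 7 lower (26.1% and 15.2%, against 27.5% and 21.3%), and in mCtx 17 and 6 (37.0% and 13.0%, against 26.2% and 24.4%). From mESC to mNPC 5 rose and 12 fell in chromatin (10.9% and 26.1%, against 25.3% and 31.9%), and 3 rose and 21 fell in cytoplasm (6.52% and 45.7%, against 29.8% and 29.6%). From mNPC to mCtx 1 rose and 4 fell in chromatin (2.17% and 8.70%, against 23.5% and 21.4%), and 0 rose and 7 fell in cytoplasm (0% and 15.2%, against 24.4% and 20%). Sfpq had a mean of 1157 CPM in mESC chromatin, 1546 in mNPC and 859 in mCtx.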

How the data were processed

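Read counts of 37332 genes (35449 with a symbol) and TPM values of 53379 genes were used for all 27 libraries, with depths as given above. The tools named in the submitters' processing notes are kallisto 0.43.0, featureCounts and STAR, and the build is mm10; settings and annotation release are not used here. Counts as deposited are unnormalised reads over each gene's whole span, from the values and lengths in the file, and the deposited TPM values were taken as the authors made them. Groups and replicate numbers come from the titles. The libraries are labelled biological replicates. From the data, same-numbered fractions deviated together in mESC (correlations of 0.40 to 0.76) and for chromatin and cytoplasm of mCtx (0.17 to 0.26), so there the numbers pair the libraries; in the other fraction pairs at least 1 correlation was under 0.1.

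Counts were scaled with TMM, filtered with filterByExpr and fitted in edgeR 4.0.16 (R 4.3.3) by quasi-likelihood with 1 mean per group, with Benjamini-Hochberg adjustment over the 18226 genes tested; Skint5 and Iqcm did not pass the filter. Calls needed an adjusted p under 0.05 and a log2 change of at least 1. A median after bounds sets a group without any count to 3 counts. A gene with 3 counts or fewer in both groups is set to no change. Other genes with 3 counts or fewer in a group take the ratio of their scaled counts. TPM values, with 1 or 0.1 added, were tested with limma-trend (limma 3.58.1) over genes at 1 TPM or more in 3 libraries. DESeq2 1.42.0, other scalings and filters, the compared libraries alone, a replicate block and leave-one-out fits were alternatives. The fitting scripts were tested on simulated data. Tables were handled with Python 3.11.15 and pandas 2.3.3.

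The members, role lists and marker lists were chosen with earlier results of these data known, and some roles were assigned from the members' names. Named genes were the called members with the largest changes per contrast (at a group mean of 2 CPM or more, with groups that do not overlap), the 5 longest, the 3 with the highest CPM in each role list and the extremes of codons per base. Codons of the longest annotated coding sequence (GENCODE M21) stood in for protein length. Of the members, 66.1% had the same start and end there. Genes of the opening TPM ranking in cytoplasm, the promoters, Erbb4 in mCtx and Ptprk across fractions were picked after their values were seen. Some named genes are not reported here.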

Additional observations from a re-analysis of the deposited data

Results flagged for a closer look

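The 29 results below are changes of the chromatin minus cytoplasm log2 difference from one cell type to the next, over 3 libraries in each of 4 groups. All were called by edgeR's quasi-likelihood test of the difference itself, with adjusted p under 0.05. They are the named genes with the largest changes, with Fgf13 in both steps, and not all members called. From mESC to mNPC 64 members fell and 7 rose (17.7% and 10.3% of all genes). From mNPC to mCtx 31 rose and 11 fell (7.68% and 11.4%).

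From mESC to mNPC the difference grew for Lrp1b, a giant lipoprotein receptor (3.46), Lrrc4c, a netrin-G ligand (2.68), the zinc finger repressor Zbtb20 (2.66), Pde4d (2.63) and Lrba (1.04). Lrp1b, Pde4d and Zbtb20 share counts with genes inside them, and Zbtb20 had -0.07 in TPM + 1. Lrba lost its call without 1 mESC cytoplasm library (0.69) and without 1 mNPC cytoplasm library (0.82).

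In the same step it shrank for Nkain3 (-6.73), Car10 (-5.38), Negr1 (-5.11), Cdh18 (-4.46), Gpc6 (-3.95), Syt1 (-3.94), Clstn2 (-3.72) and Fgf13 (-3.62). Nkain3 had no count in mESC cytoplasm, and Car10, Cdh18, Clstn2, Negr1 and Fgf13 had a group with 3 counts or fewer, so their sizes depend on the prior count. In TPM + 1 and TPM + 0.1 the change turned sign for Car10 (0.079 and 0.33), Clstn2 (0.52 and 0.85) and Fgf13 (0.71 and 0.30). Car10 was not called without mNPC cytoplasm replicate 3 (-2.71), nor Cdh18 without mNPC cytoplasm replicate 1 (-1.84).

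From mNPC to mCtx it grew for Prkg1 (4.69), Fgf13 (2.76), the synaptic adhesion protein Lingo2 (2.72), St6galnac3 (2.43), the syntrophin Sntg1 (2.42), Dpyd (2.41), Gmds (2.30) and Magi2 (2.27). In TPM + 1 and TPM + 0.1 the change turned sign for Fgf13 (-2.14 and -1.30) and Lingo2 (-0.49 and -1.02). Fgf13 rests on 1 count in mNPC chromatin, and was not called without mNPC chromatin replicate 2 (2.23). Magi2 shares counts with genes inside it.

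It shrank in this step for Ptprn2 (-2.54), Il1rapl1, a synaptic adhesion receptor (-1.95), Edil3 (-1.88), Dach2 (-1.83), Fstl5 (-1.80), the phospholipid flippase Atp8a2 (-1.50), Elmo1 (-1.35) and Erbb4 (-1.33). Atp8a2 was not called without mNPC chromatin replicate 2 (-1.33).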

How the results depend on the processing

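Counts of calls below are given as higher then lower unless said otherwise. Across 139 results for named genes, 2323 fits under the alternatives kept direction and call, 95 kept direction but not the call and 24 turned sign, all 24 in TPM. Over the 24 counts of calls, 363 fits stayed within 1.5 times of the main count and 55 did not.

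In TPM + 1 and TPM + 0.1 the members higher on chromatin were 31 and 75 in mESC and 43 and 50 in mCtx. Higher in nucleoplasm were 12 and 34 in mESC and 20 and 29 in mCtx, and 35 in mNPC with TPM + 1. Lower in nucleoplasm were 2 in mESC with TPM + 1, 12 and 15 in mNPC, and 6 and 7 in mCtx. From mESC to mNPC 17 and 25 fell in chromatin and 14 and 18 in cytoplasm, and from mNPC to mCtx 25 fell in chromatin with TPM + 0.1. For the difference from mESC to mNPC the values were 15 and 17 rises with 17 and 37 falls, and from mNPC to mCtx 15 rises with TPM + 0.1 and 20 and 21 falls.

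Genes that turned sign had these values in TPM + 1 and TPM + 0.1. On mESC chromatin Pde4d had 0.073 and 0.093 and Lrp1b 0.26 and 1.39, on mNPC chromatin Trpm3 0.28 and 1.01, and in mESC nucleoplasm Lrp1b 0.033 and 0.26. From mESC to mNPC, Car10 had 0.060 and 0.17 in chromatin and Pde4d 0.80 and 0.94 in cytoplasm. For the difference from mESC to mNPC, Zbtb20 had -0.067 and -0.40, Car10 0.079 and 0.33, Clstn2 0.52 and 0.85 and Fgf13 0.71 and 0.30, and from mNPC to mCtx Fgf13 had -2.14 and -1.30 and Lingo2 -0.49 and -1.02. The median of that last difference turned to -0.21 in TPM + 0.1. The cause was not tested.

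With no minimum fold change, members lower numbered 15, 23 and 21 on chromatin of mESC, mNPC and mCtx and 21, 26 and 11 in nucleoplasm, members higher in mCtx nucleoplasm 73, and falls of the difference from mNPC to mCtx 17. Library totals gave 3 lower on mESC chromatin, 0 lower in mESC nucleoplasm and 16 lower in mNPC nucleoplasm. Members lower in mESC nucleoplasm were 8 with RLE size factors, with no filter, with a 1 CPM filter and with DESeq2, and 0 with only the libraries compared, which also gave 34 higher there and 1 lower in mNPC. DESeq2 gave 1 lower in mNPC and 1 in mCtx nucleoplasm, and RLE 1 in mCtx.

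Leaving out each library in turn gave 4 to 10 members lower in mESC nucleoplasm, with 9 without mESC nucleoplasm replicate 1 and 10 and 8 without mESC cytoplasm replicates 2 and 3. It gave 1 to 5 in mNPC, with 2 without nucleoplasm replicates 1 and 2 and 1 without replicate 3, and 1 to 5 in mCtx, with 1 and 5 without cytoplasm replicates 1 and 2.

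Replicate numbers are shared between groups. With a replicate block, within cell type for the fractions, 117 and 6 members were higher and lower on mESC chromatin, 54 and 8 in mNPC and 82 and 9 in mCtx, and no call of a named gene changed and no count of calls moved by over 1.5 times. Same-numbered libraries of different cell types did not deviate together, with correlations of -0.19 to 0.08, 2 of 12 being best with their own number. Low counts limit the members in mESC and mNPC cytoplasm.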
